A study of Mus musculus with 8 samples.

Results

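The genes described here encode the parts of the desmosome, and 8 were chosen by name: Jup, Dsp, Pkp1, Pkp2, Pkp3, Dsg2, Dsc2 and Perp. All 8 were measured, each by 1 probeset with a single gene symbol, among 19937 named genes. The cells were NMuMG, an epithelial line from the mouse mammary gland, stably transfected either with a vector holding major satellite sequence, the repeat found beside mouse centromeres, or with a control vector. Total RNA was hybridised to 1-colour Affymetrix arrays in 4 groups of 2 arrays: Major satellite cells after 8 h of TGFbeta, untreated Major satellite cells, control vector cells after 8 h of TGFbeta, and untreated control vector cells. All 4 groups therefore carried a stably transfected vector. Whether each transfected line was 1 clone or a pool, and the TGFbeta dose, are not given in the sources used here.

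Desmosomes are adhesive junctions that tie the intermediate filaments of neighbouring epithelial cells together. Desmosomal cadherins, the desmogleins and desmocollins, span the membrane and bind each other outside the cell. Inside, the armadillo proteins plakoglobin and the plakophilins link the cadherin tails to desmoplakin, which in turn anchors keratin filaments. TGFbeta is known to start an epithelial-mesenchymal transition in NMuMG cells, a change in which epithelial junctions are commonly taken apart.

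Values are log2 expression after robust multi-array averaging (RMA), and a log2 difference of 1 is a doubling of signal. Probesets differ in brightness, so the levels of the desmosome genes are compared between arrays and not with each other. Each array title carries a code shared by 1 array of every group, and arrays were numbered replicate 1 or 2 by it. Array medians lay at 7.72 to 7.76 in replicate 1 and at 7.88 to 7.92 in replicate 2, and deviations from the group means correlated between arrays of the same number at 0.758 to 0.874 across genes. Differences were therefore fitted with limma both without and with the replicate number as a block. The fitted difference is the same in both fits, and its standard error (SE) and its p-value, adjusted over the 19937 genes by Benjamini-Hochberg, are not. The threshold for passing was an adjusted p of 0.05. The labels do not tell whether the arrays of a group came from different cultures, so the error may be technical.

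The labelled epithelial cell type was checked on 8 markers. Krt8 and Krt18, the keratins of simple epithelia, averaged 14.32 and 13.77 over the 8 arrays, and Cdh1, which encodes E-cadherin, averaged 12.91. Cldn3 averaged 8.37, and Epcam, Cldn7, Esrp1 and Grhl2 averaged 6.84, 6.84, 6.09 and 6.20, where the median over all genes was 8.19. Brightness depends on the probeset and the table holds no detection call, so these levels do not tell whether the markers were above background. With TGFbeta, Smad7, a target that feeds back on the pathway, rose by 1.20 ± 0.10 over both vectors (SE, adjusted p = 0.00242).

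RefSeq promoter windows, from 250 bases before to 50 bases after the gene start, are shown for 2 of the 8 genes, Jup and Dsp. Windows on 1 chromosome were left out beforehand, so any held there for other desmosome genes would not be shown. The windows were not picked by expression or by motif. Both genes were higher after TGFbeta on every pair of arrays, as were Pkp1, Pkp2 and Perp. The Jup window lies at chr11:100397741-100398040 on the minus strand and the Dsp window at chr13:38151044-38151343 on the plus strand of GRCm38.p6. Both read 5′ to 3′ in the direction of the gene, and capitals mark matches to CAGGTG (the E-box of Snail and Zeb factors) or GGGCGG (the GC box) on either strand.
Jup: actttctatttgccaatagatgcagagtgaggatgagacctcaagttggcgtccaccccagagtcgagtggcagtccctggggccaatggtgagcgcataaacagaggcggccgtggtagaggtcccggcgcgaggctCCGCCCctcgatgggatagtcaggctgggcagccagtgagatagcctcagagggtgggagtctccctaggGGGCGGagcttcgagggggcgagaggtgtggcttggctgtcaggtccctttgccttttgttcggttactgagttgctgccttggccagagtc
Dsp: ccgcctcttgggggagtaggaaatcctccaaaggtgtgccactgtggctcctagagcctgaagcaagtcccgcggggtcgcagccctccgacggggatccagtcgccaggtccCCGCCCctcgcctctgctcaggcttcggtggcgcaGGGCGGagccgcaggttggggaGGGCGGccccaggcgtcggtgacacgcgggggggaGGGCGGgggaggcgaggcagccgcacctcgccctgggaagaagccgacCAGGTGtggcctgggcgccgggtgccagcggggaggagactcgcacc
The Dsp window held 1 CAGGTG, starting at base 4 after the gene start, and 4 GC boxes. The Jup window held 0 CAGGTG and 2 GC boxes, and both windows held 0 matches to CAGAC, the Smad box. No match overlapped another. Of 32851 such windows in the RefSeq table, 20.2% held CAGGTG, 35.7% GGGCGG and 49.6% CAGAC on either strand. These matches describe the letters in these windows and not binding.

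The first question was how the desmosome genes responded to 8 h of TGFbeta. All 8 had a positive mean difference over both vectors. The 4 with the highest fold changes encode plaque proteins, as do most of the 8. Pkp1 was 2.52-fold higher with TGFbeta, Jup 1.54-fold, Pkp2 1.28-fold and Dsp 1.16-fold. Pkp3, also a plaque gene, was 1.08-fold higher, below the 1.13-fold of Perp, which encodes a membrane protein. Without the block, 1 of the 8 (Jup) rose and 0 fell, where 4.83% of all genes passed and 2.57% rose. With the block, 4 of the 8 rose and 0 fell, where 24.3% of all genes passed and 11.2% rose. The median difference of the 8 was 0.19, against 0.02 over all genes. The 8 were chosen with earlier results of these data known, so the comparison with all genes is not independent of the data. Because RNA came from whole cultures, a change in cell makeup and a change in RNA per cell cannot be told apart.

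**Figure D1:**
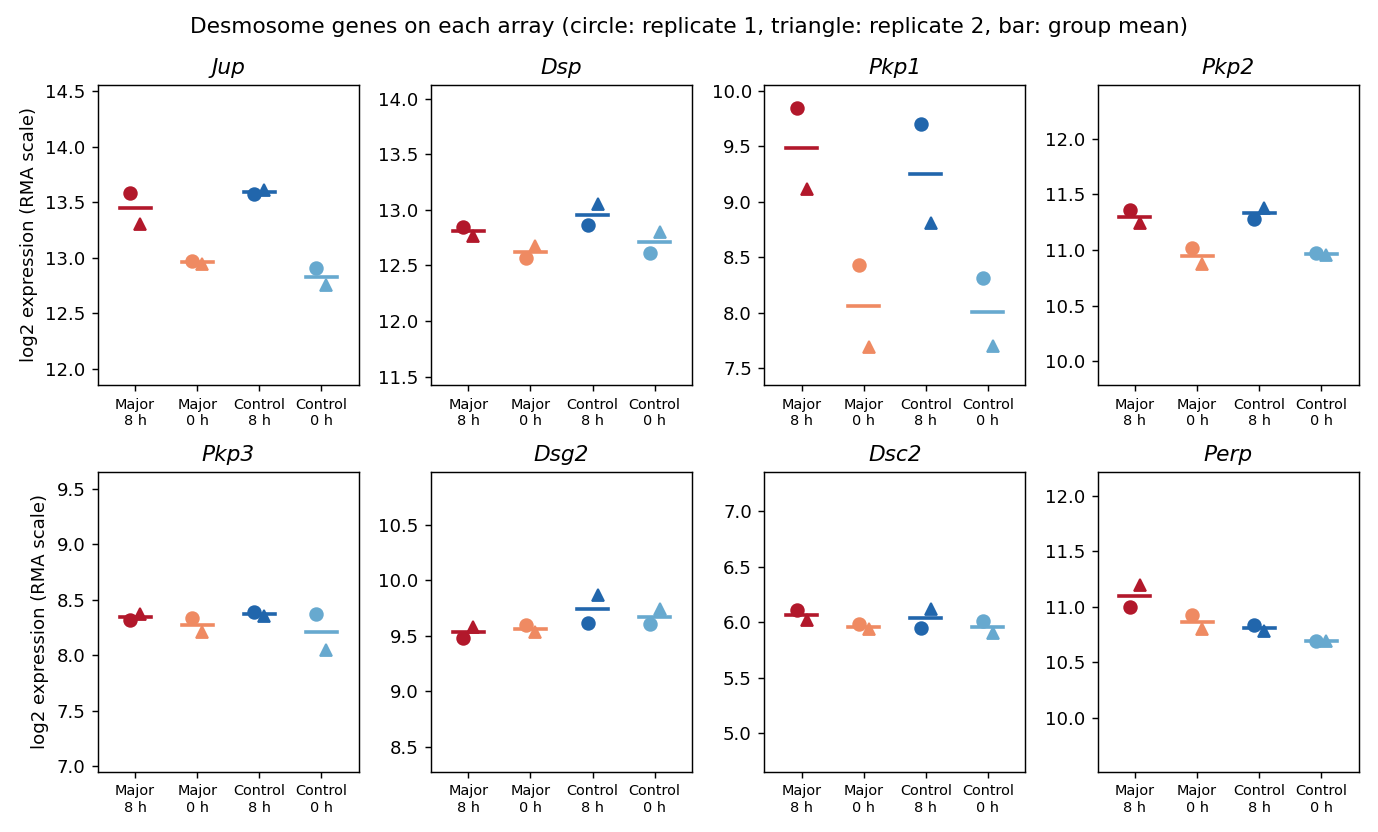
Log2 expression of each desmosome gene on each of the 8 arrays, by group, with the same span on every vertical axis; circles are replicate 1, triangles replicate 2 and bars group means. Jup, Pkp1 and Pkp2 lie higher on every array at 8 h than on any at 0 h, and Pkp1 is lower in replicate 2 than in replicate 1 of every group. How many of all genes separate in this way was not counted.

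Pkp1 encodes plakophilin 1, a plaque protein that gathers desmosomal components and strengthens adhesion. Its log2 expression was 9.85 and 9.12 in TGFbeta-treated and 8.43 and 7.70 in untreated Major satellite cells, replicate 1 before replicate 2. In control vector cells it was 9.70 and 8.81 with TGFbeta and 8.31 and 7.70 without. Every TGFbeta array was above every untreated one, from 8.81 upwards against at most 8.43, while replicate 2 lay 0.74 below replicate 1 on average. How many of all genes separated in this way, or kept the same sign in every pair, was not counted, here and for the genes below.

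Taken within each replicate number, the Pkp1 gain was 1.42 and 1.42 in Major satellite cells and 1.38 and 1.10 in control vector cells. The difference over both vectors was 1.33, with an SE of 0.30 without the block (adjusted p = 0.0648) and of 0.07 with it (adjusted p = 2.06e-06). The shift between replicate numbers thus entered the error of the first fit and not of the second. With the block Pkp1 rose in Major satellite cells by 1.42 ± 0.09 (adjusted p = 3.52e-05) and in control vector cells by 1.24 ± 0.09 (adjusted p = 5.99e-05). It passed under all 7 other processing settings combined with the block and in all 8 blocked fits that left out 1 array, in each of these comparisons.

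Jup encodes plakoglobin, the armadillo protein that binds the tails of desmosomal cadherins and is shared with adherens junctions. Its log2 expression was 13.58 and 13.30 in TGFbeta-treated and 12.97 and 12.94 in untreated Major satellite cells. Control vector cells had 13.57 and 13.61 with TGFbeta and 12.91 and 12.75 without. The 4 TGFbeta arrays, at 13.30 or more, did not overlap the 4 untreated ones, at 12.97 or less.

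Jup rose by 0.62 ± 0.09 over both vectors (adjusted p = 0.018, blocked 0.000197). Without the block, this call was lost in 6 of 8 fits that left out 1 array, with differences of 0.55 to 0.63, and was kept only without replicate 1 of untreated control cells or replicate 2 of TGFbeta-treated Major satellite cells. It was kept in all 8 such fits with the block. Within control vector cells the difference was 0.76 ± 0.13 (adjusted p = 0.0684, blocked 0.00102), from pairs of 0.66 and 0.85. Within Major satellite cells it was 0.49 ± 0.13 (adjusted p = 0.216, blocked 0.0102), from pairs of 0.61 and 0.36. The blocked call in Major satellite cells was lost without replicate 1 of the treated arrays (0.37, adjusted p = 0.0627). It was also lost without replicate 1 (0.44, adjusted p = 0.099) or replicate 2 (0.54, adjusted p = 0.0581) of the untreated arrays.

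Pkp2 encodes plakophilin 2, the family member known for its role in heart muscle and also present in simple epithelia. Its log2 expression was 11.36 and 11.24 in TGFbeta-treated and 11.02 and 10.88 in untreated Major satellite cells. Control vector cells had 11.28 and 11.38 with TGFbeta and 10.97 and 10.96 without. The TGFbeta arrays and the untreated arrays did not overlap.

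The Pkp2 difference over both vectors was 0.36 ± 0.08 (adjusted p = 0.0648), and it rose when blocked (adjusted p = 0.00309). It passed in Major satellite cells with 0.35 (blocked adjusted p = 0.0305) and in control vector cells with 0.37 (blocked adjusted p = 0.0268). These within-vector calls were lost without any 1 of the 4 Major satellite arrays (0.29 to 0.42). In control vector cells they were lost without replicate 1 (0.35) or replicate 2 (0.39) of the untreated arrays or replicate 2 of the treated ones (0.27). The call over both vectors was kept in all 8 such blocked fits.

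Dsp encodes desmoplakin, the plakin that attaches keratin filaments to the plaque. Its log2 expression was 12.85 and 12.77 in TGFbeta-treated and 12.57 and 12.67 in untreated Major satellite cells. In control vector cells it was 12.86 and 13.06 with TGFbeta and 12.62 and 12.80 without. Dsp was higher with TGFbeta in 4 of 4 pairs, but the TGFbeta arrays, from 12.77, overlapped the untreated ones, up to 12.80.

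The Dsp difference over both vectors was 0.22 ± 0.09 (adjusted p = 0.345), and it passed when blocked (adjusted p = 0.0453). It was lost in 7 of the 8 blocked fits that left out 1 array, with adjusted p up to 0.18 and differences of 0.16 to 0.25, and was kept only without replicate 2 of TGFbeta-treated Major satellite cells. In neither vector alone did Dsp pass (blocked adjusted p = 0.242 in Major satellite cells and 0.135 in control vector cells).

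**Figure D2:**
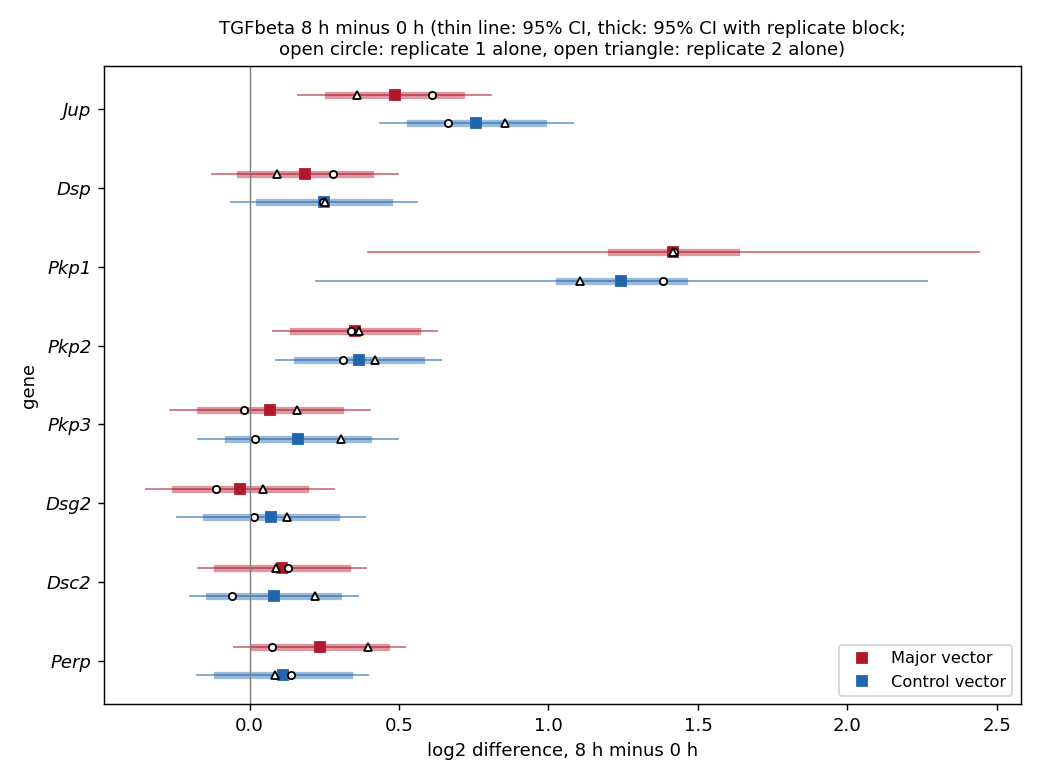
Log2 difference of each desmosome gene between 8 h of TGFbeta and 0 h, in Major and Control vector cells; squares are fitted differences, thin lines 95% confidence intervals, thick lines the intervals with the replicate block, and open symbols the single pairs. For Pkp1 the interval narrows from 0.40 to 2.44 without the block to 1.21 to 1.63 with it in Major cells. The intervals of Pkp3, Dsg2 and Dsc2 include 0 in both vectors, with and without the block. Those of Dsp and Perp include 0 in both vectors without the block. With the block they exclude 0 only in Control cells for Dsp and only in Major cells for Perp.

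The third plakophilin, Pkp3, which binds all classes of desmosomal cadherin, lay between 8.32 and 8.39 on the TGFbeta arrays and between 8.05 and 8.38 on the untreated ones. The 4 TGFbeta arrays lay within 0.08 of each other, and the untreated group reached into their range. Its difference over both vectors was 0.12, with a blocked 95% interval of -0.05 to 0.28 (adjusted p = 0.773, blocked 0.309).

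The cadherins that cross the membrane did not pass. Dsg2, desmoglein 2, the desmoglein of simple epithelia, ranged from 9.48 to 9.87 with TGFbeta and from 9.53 to 9.74 without, and differed by 0.02 (blocked 95% interval -0.14 to 0.17, blocked adjusted p = 0.878). Its partner Dsc2, desmocollin 2, ranged from 5.95 to 6.12 with TGFbeta and from 5.90 to 6.01 without, and differed by 0.09 (blocked 95% interval -0.06 to 0.25, blocked adjusted p = 0.368). The groups overlapped for both genes. Whether the dim signal of Dsc2 was above background is unknown, since the table holds no detection call.

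Perp encodes a tetraspan membrane protein of desmosomes that is also a known p53 target. Its log2 expression was 11.00 and 11.19 in TGFbeta-treated and 10.93 and 10.80 in untreated Major satellite cells. Control vector cells had 10.83 and 10.78 with TGFbeta and 10.70 and 10.70 without. All 4 pairs were higher with TGFbeta, by 0.07 to 0.39, yet Perp did not pass over both vectors (0.17 ± 0.08, adjusted p = 0.444, blocked 0.106). Blocked, it passed only when replicate 1 of TGFbeta-treated Major satellite cells was left out (0.24, adjusted p = 0.0358).

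Within each vector, 0 of the 8 genes passed in limma without the block, where 1.09% of all genes passed in Major satellite cells (0.682% higher) and 1.07% in control vector cells (0.707% higher). At an unadjusted threshold of 0.05, 3 of the 8 lay under it in each vector, namely Jup, Pkp1 and Pkp2, as did 1937 of 19937 genes in Major satellite cells and 1863 in control vector cells. With the block these 3 rose in each vector, where 15.3% of all genes passed in Major satellite cells (6.89% higher) and 14.6% in control vector cells (6.92% higher). The median difference of the 8 was 0.21 in Major satellite cells and 0.21 in control vector cells.

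The next question was whether the major satellite vector changed the desmosome genes or their TGFbeta response. None of the 8 passed in limma, with or without the block, at 8 h, at 0 h or over both times. Few genes of the whole array did: 0.00502% at 8 h and 0.00502% at 0 h without the block, 0.0301% and 0.0301% with it, and 0.01% and 0.0853% without and with it over both times. At 8 h, Perp lay under an unadjusted 0.05 in both fits and Pkp1 in the blocked one, as did 85 of 19937 genes without the block and 1298 with it. Over both times, Perp did so in both fits and Dsg2 in the blocked one, as did 110 genes without the block and 1071 with it. At 0 h, 0 of the 8 did so in either fit, against 86 genes without the block and 654 with it.

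Perp had the largest of the 8 differences between vectors over both times, 0.23 higher in Major satellite cells (blocked 95% interval 0.07 to 0.39, adjusted p = 1, blocked 0.868). It was higher in Major satellite cells in 4 of 4 pairs, by 0.17 and 0.41 with TGFbeta and by 0.23 and 0.10 without. Dsg2 differed by -0.16 (blocked 95% interval -0.31 to -0.01, blocked adjusted p = 0.874) and Dsp by -0.12 (-0.27 to 0.03, blocked adjusted p = 0.874), and both were lower in Major satellite cells in 4 of 4 pairs. The share of all genes with the same sign in every pair was not counted. Pairs with and without TGFbeta share replicate numbers, so the 4 pairs may not be independent. Jup differed by -0.01 (-0.17 to 0.15) and Pkp2 by -0.02 (-0.17 to 0.12). For Pkp1 the vectors differed by 0.14 (-0.01 to 0.29). The blocked intervals reach 0.39 on the log2 scale, for Perp, and those without the block are wider, -0.58 to 0.86 for Pkp1 and up to 0.43 for Perp, so a p above the threshold does not show that the vectors acted alike.

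**Figure D3:**
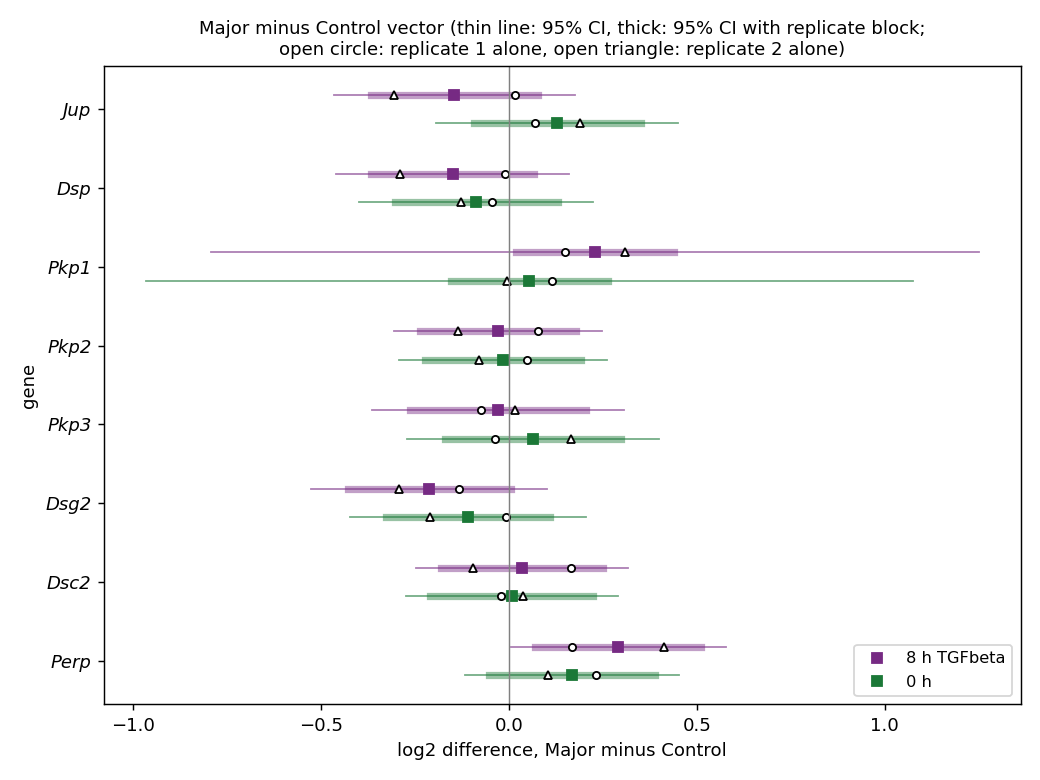
Log2 difference of each desmosome gene between Major and Control vector cells, at 8 h of TGFbeta and at 0 h, with symbols and lines as in the plot of TGFbeta differences. None of the 8 genes passed. Perp lies to the right of 0 in all 4 pairs, and Dsg2 and Dsp to the left in all 4. The share of all genes with the same sign in every pair was not counted.

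The TGFbeta response itself was compared between the vectors with an interaction term. None of the 8 genes passed, and of all genes 0% passed, with and without the block; at an unadjusted threshold of 0.05, 0 of the 8 lay under it in either fit, against 658 of 19937 genes when blocked and 44 without. Jup had the largest such difference, a response smaller by 0.27 in Major satellite cells (-0.27, blocked 95% interval -0.59 to 0.04, blocked adjusted p = 0.999). That came mainly from replicate 2, where the 2 responses differed by -0.49, against -0.05 in replicate 1. For Pkp1 the response differed by 0.17 (-0.12 to 0.47) and for Pkp2 by -0.01 (-0.31 to 0.28).

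Among 4536 other genes with a range of at least 0.5 after centring on the replicate numbers, those closest to Pkp1 over the 8 arrays included Pgm2, Mcfd2 and Itgb3. Pgm2 encodes a phosphoglucomutase, Mcfd2 a cargo receptor subunit of the secretory pathway and Itgb3 an integrin subunit. Their Pearson correlations with Pkp1 were 0.998, 0.996 and 0.995, as a measure of likeness over arrays that share the TGFbeta contrast. Their TGFbeta differences over both vectors were 0.75, 0.56 and 0.95, smaller than the 1.33 of Pkp1.

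Other genes of the desmosome and its surroundings were taken from lists. Their TGFbeta counts stand beside 4.83% of all genes passing over both vectors without the block and 24.3% with it. Of 9 other measured desmosomal cadherin, plaque and cornified envelope genes, 0 rose and 1 fell over both vectors without the block, and 0 rose and 2 fell with it. Ppl, periplakin, a plakin related to desmoplakin, had log2 expression of 9.93 and 9.74 in TGFbeta-treated and 11.41 and 11.32 in untreated Major satellite cells. Control vector cells had 9.83 and 9.95 with TGFbeta and 11.32 and 11.30 without. Ppl fell by 1.48 ± 0.08 on the log2 scale (adjusted p = 0.00128, blocked 1.61e-06), without overlap between treated and untreated arrays.

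Pkp4, a plakophilin-related armadillo protein found also at adherens junctions, differed by -0.37 ± 0.09 (adjusted p = 0.0901) and fell when blocked (adjusted p = 0.00539). Its sign was thus opposite to that of Pkp1 and Pkp2; the difference between these genes was not tested. The other 7 measured genes did not pass in either fit. The list had a median difference of 0.03, against 0.02 over all genes.

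Of 14 keratins, the filaments that desmoplakin holds, 1 rose and 1 fell without the block and 5 rose and 2 fell with it, with a median of 0.19. Krt20 rose by 1.23 ± 0.11 (adjusted p = 0.00356) and Krt19 fell by 0.74 ± 0.11 on the log2 scale (adjusted p = 0.0178). Krt16 (0.90) and Krt7 (0.82) rose when blocked (adjusted p = 0.000305 and 0.000522). Krt8 and Krt18, the main pair of simple epithelia, differed by 0.07 and 0.16 (blocked adjusted p = 0.474 and 0.119).

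Of 14 adherens junction genes, 0 passed without the block and 4 rose and 1 fell with it, with a median of 0.08. Nectin1, an immunoglobulin-like adhesion receptor, differed by 1.03 (blocked adjusted p = 7.25e-06), Nectin3 by 0.42 (blocked 0.00202) and Ctnnd1, p120 catenin, by 0.41 (blocked 0.000853). Afdn, the nectin-binding protein afadin, differed by -0.40 (blocked adjusted p = 0.00542). Cdh1 differed by -0.12 ± 0.13 (adjusted p = 0.857, blocked 0.241).

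Of 8 measured hemidesmosome genes, whose products tie keratins to the basement membrane, 3 rose without the block and 7 rose with it, 0 fell in either fit, and the median was 0.32. Lamb3, a laminin chain of the basement membrane, rose by 1.23 ± 0.17 (adjusted p = 0.0134). Itgb4, the integrin beta 4 subunit, rose by 0.58 ± 0.12 (adjusted p = 0.0433), and Cd151, a tetraspanin that binds laminin receptors, by 0.38 ± 0.08 (adjusted p = 0.0452). Lama3, another chain of the same laminin, rose by 0.36 when blocked (adjusted p = 0.00317). Between the vectors, 0 of the 45 measured genes of these 4 lists passed over both times in limma in either fit, and 0 lay under an unadjusted 0.05 without the block and 7 with it, against 110 and 1071 of all 19937 genes.

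**Figure D4:**
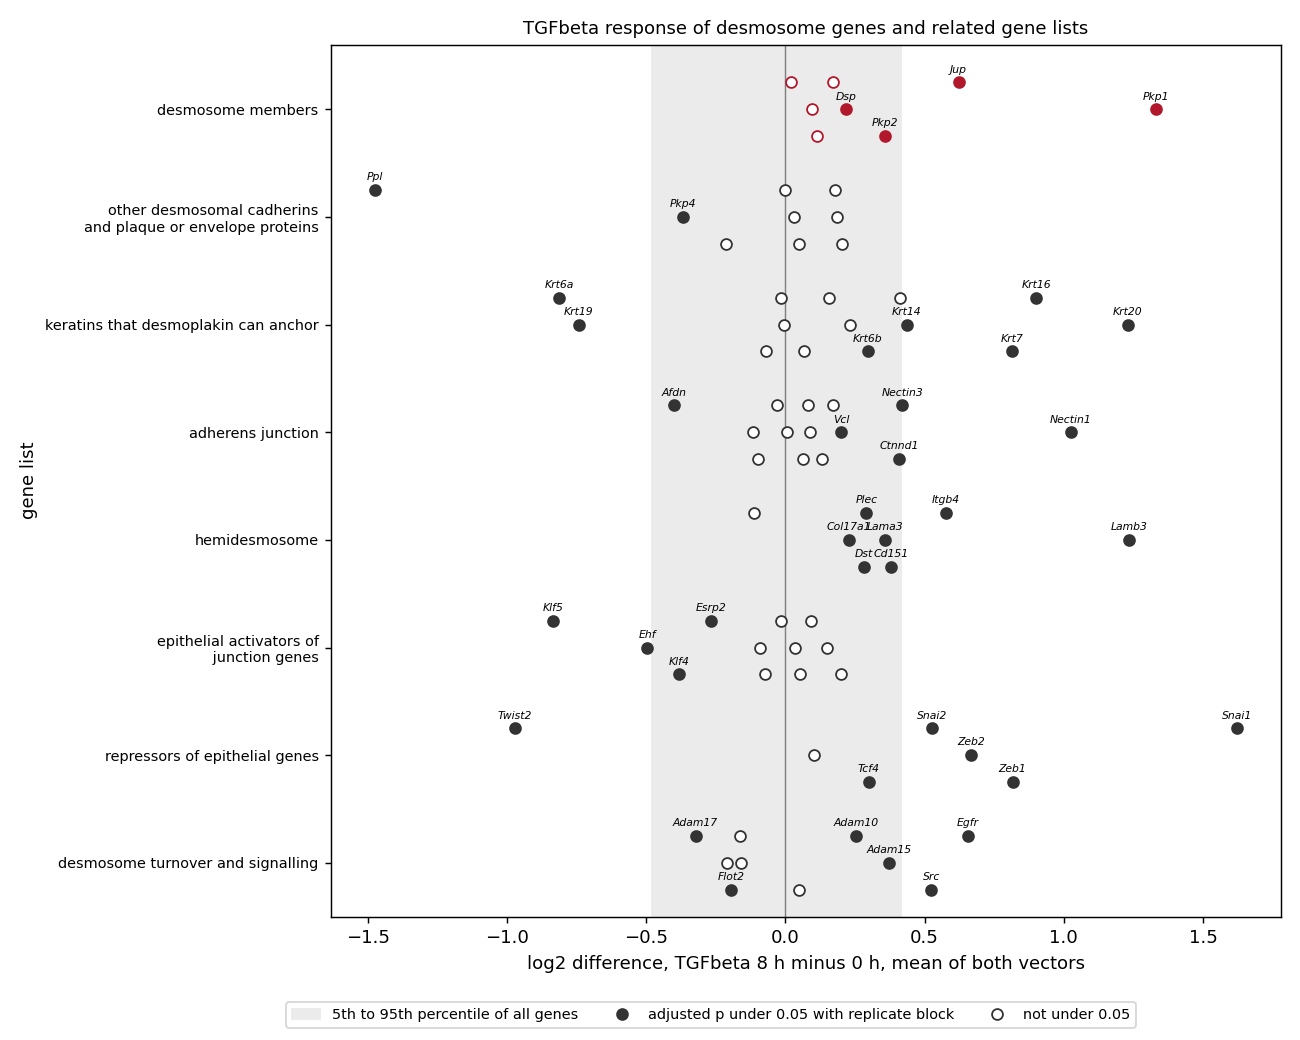
Log2 difference between 8 h of TGFbeta and 0 h over both vectors for each measured gene of the desmosome and of 7 related lists; filled points passed with the replicate block and are named, and the grey band spans the 5th to 95th percentile of all genes, -0.48 to 0.41. Pkp1 and Jup lie beyond the band to the right, Ppl beyond it to the left, and 7 of 8 hemidesmosome genes are filled and to the right of 0.

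Markers of other cell types were read beside these results, where 4.83% of all genes passed over both vectors without the block and 24.3% with it. Of 7 fibroblast markers, 1 rose with TGFbeta over both vectors, Pdgfra (0.66, adjusted p = 0.0281), and 3 rose when blocked, Pdgfra, Col1a1 (0.47) and Pdgfrb (0.29). Their summed level, as log2 of the summed signals, was 10.55 to 10.63 in TGFbeta-treated and 10.15 to 10.33 in untreated Major satellite cells. It was 10.45 to 10.58 with TGFbeta and 10.12 to 10.40 without in control vector cells. Of 6 endothelial and immune markers, 0 passed without the block and 1 rose with it, Cdh5 (0.30, blocked adjusted p = 0.00783). Their summed level was 9.50 to 9.75 in TGFbeta-treated and 9.39 to 9.57 in untreated Major satellite cells, and 9.44 to 9.67 with TGFbeta and 9.34 to 9.58 without in control vector cells. Of the 8 epithelial markers, 0 passed without the block and 2 rose with it, Epcam (0.39, blocked adjusted p = 0.00981) and Cldn3 (0.31, blocked adjusted p = 0.0261). Their summed level, in which the brightest probesets, those of Krt8 and Krt18, weigh most, was 15.38 to 15.46 in TGFbeta-treated and 15.28 to 15.41 in untreated Major satellite cells, and 15.40 to 15.45 with TGFbeta and 15.30 to 15.44 without in control vector cells. On this scale no marker can be at 0, and the part of these markers in the desmosome results was not tested.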

How the data were processed

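The authors deposited 1 log2 value per probeset and array, on the RMA scale, for 34760 probesets with 0 missing. RMA and limma are named in the submitters' processing notes, and their versions and roles are not given in the sources used here. Of the probesets, 21640 had 1 gene symbol in the platform's table, 1321 had several and 11799 were not listed. Current symbols came from RefSeq (GRCm38.p6) by Entrez number, for 21553 probesets. For the 954 genes with several probesets the one with the highest mean over all 8 arrays was used, which left 19937 genes.

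One mean per group was fitted to all 8 arrays with limma 3.58.1 in R 4.3.3 (4 residual degrees of freedom, or 3 with the replicate number as a block), with two-sided tests and Benjamini-Hochberg adjustment over all genes. The fit without the block is given first, as the submitters' processing notes name no block. The code in the titles was read as pairing the arrays, since deviations of same-numbered arrays correlated at 0.758 to 0.874. The labels do not tell what the code marks. Such a correlation shows a shared deviation and not that same-numbered arrays came from the same culture. The scripts were tested on simulated data. Named genes were the 8 desmosome genes, up to 4 passing genes with the smallest p of each list, 6 fixed genes and the 4 genes most like Pkp1, of which 1 is not reported here. No desmosome gene had a negative mean response, so no likeness was sought for a fall. Alternatives were other normalizations, probeset rules, filters, array sets and a variance trend. The desmosome genes and the lists were chosen with earlier results of these data known. The number of arrays, 2 per group, limits precision. Promoter letters are RefSeq's, matched by symbol, with windows on 1 chromosome left out.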

Additional observations from a re-analysis of the deposited data

How the results depend on the processing

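With the replicate block, the desmosome genes passing under TGFbeta numbered 3 in place of 0 in Major satellite cells, 3 in place of 0 in control vector cells and 4 in place of 1 over both vectors. The block changed no other call of the 8 genes. Without it, the 1 call over both vectors (Jup) became 0 when array medians were subtracted (adjusted p = 0.0888) and 0 when all 34760 probesets were tested (adjusted p = 0.0557), and lay between 0 and 1 when 1 array was left out. An intensity trend gave 1 call in control vector cells (Jup, adjusted p = 0.0446). With the block, testing all probesets left 1 call in Major satellite cells (Pkp1), and leaving out 1 array left 1 to 3 there. In that setting Pkp2 also missed the threshold in control vector cells (adjusted p = 0.0987), as did Dsp over both vectors (0.116), and Dsp missed it after quantile normalization (0.0614) too. Pkp2 in Major satellite cells missed it when only those 4 arrays were fitted (0.0723). Leaving out the dimmest 30% of genes removed Dsc2. No call reversed, and counts between vectors and for the difference of responses stayed at 0 in all settings run. Over all genes, the 962 calls of the mean TGFbeta response became 540 with array medians subtracted and 462 over all probesets, 359 to 638 with 1 array left out, and 4841 with the block. Some of these settings had fewer arrays or more probesets tested, and the cause of the changed counts was not tested. Fits that left out 1 array assume that the lone array of its group varies like the others.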

Other observations

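Genes known to act on junction genes or on desmosome turnover were read over both vectors as values. Of all genes, 4.83% passed there without the block and 24.3% with it. Of 7 repressors of epithelial genes, 2 rose and 1 fell with TGFbeta without the block, and 5 rose and 1 fell with it. Snai1 rose by 1.62 ± 0.27 (adjusted p = 0.0238), Zeb1 by 0.82 ± 0.09 (adjusted p = 0.00599) and, when blocked, Zeb2 by 0.67 (adjusted p = 0.000274), whereas Twist2 fell by 0.97 ± 0.10 on the log2 scale (adjusted p = 0.00549). Of 12 measured genes listed as epithelial activators, 0 rose and 1 fell without the block and 0 rose and 4 fell with it. The list also holds regulators of splicing, such as Esrp2. Klf5, a Kruppel-like factor of epithelia, fell by 0.83 ± 0.08 on the log2 scale (adjusted p = 0.00428), and Ehf, Klf4 and Esrp2 differed by -0.50, -0.38 and -0.27 (blocked adjusted p = 0.0047, 0.00154 and 0.0281).

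Of 10 genes of desmosome turnover and signalling, 1 rose without the block, and 4 rose and 2 fell with it. Egfr, the epidermal growth factor receptor, rose by 0.66 ± 0.10 (adjusted p = 0.0157). The kinase gene Src and the sheddase genes Adam15 and Adam17 differed by 0.52, 0.37 and -0.32 (blocked adjusted p = 0.000684, 0.00319 and 0.00352). Of the 29 measured genes of these 3 lists, 0 passed in limma between the vectors over both times in either fit. Of all genes, 0.01% passed there without the block and 0.0853% with it. At an unadjusted 0.05, 0 of the 29 lay under it in either fit. Of all 19937 genes, 110 did so without the block and 1071 with it.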
